A study of Danio rerio with 6 samples.

Results

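Genes of the extracellular matrix and of cell adhesion were taken from a liver count table by symbol, as those starting with *col* and a digit, *lama*, *lamb1*, *lamb2*, *lamb4*, *lamc*, *itga*, *itgb*, *mmp*, *timp*, *fbn*, *fbln*, *sparc*, *thbs*, *tnc*, *postn*, *lum*, *dcn*, *loxl*, *nid*, *hspg2*, *efemp* or *cdh* and a digit, together with *fn1b*. This rule found 31 of 6637 rows, among 207 genes of a RefSeq gene table whose symbols it would take. The remaining genes of that table were not analysed here.

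The extracellular matrix is the scaffold of collagens, laminins and glycoproteins that cells secrete around themselves, and cells hold on to it, and to each other, through integrins and cadherins. In the liver, fibronectin is secreted into the plasma and into the perisinusoidal space, in mammals largely by hepatocytes, whereas fibrillar collagens are made mainly by stellate cells and fibroblasts. Matrix metalloproteinases cut these proteins, and tissue inhibitors of metalloproteinases hold them in check.

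The tissue was liver, dissected from zebrafish larvae 7 days after fertilization (7 dpf) and pooled by 15 livers. WT larvae were compared with cr*keap1a/b* larvae, in which embryos received CRISPR/Cas9 against *keap1a* and *keap1b*, the genes of the Nrf2 repressor Keap1, at the single-cell stage. Such larvae are crispants, so the knockout was mosaic, and per the study's methods the controls came from the same clutches. Strain and transgenic background of the larvae used for livers are not given in the sources used here. There were 3 pools per group, measured as read counts near the 3′ end of transcripts.

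Library totals ranged from 10846582 to 16666610 counts. In replicate 3 of both groups 47.6% to 53.2% of the rows with a gene ID were at 0 counts, against 2.83% to 13.1% in the other 4 libraries. These replicate 3 libraries carry the letter b in their sample descriptions and the others the letter a, and the labels do not say what the letter stands for. The main results are therefore also given for the letter a libraries, 2 per group. The targeted genes overlapped between groups, with *keap1a* between 0 and 39.3 CPM (counts per 1000000 of the library) in the WT pools and between 0 and 26.1 CPM in the cr*keap1a/b* pools. *keap1b* lay between 0.583 and 32.9 CPM in the WT pools and between 0 and 43.9 CPM in the cr*keap1a/b* pools. Hepatocyte markers, 9 of 10 listed, summed to between 95707 and 208953 CPM, whereas 6 of 15 listed stellate, fibroblast and mural markers summed to between 54.4 and 152 CPM and 4 of 16 endothelial markers to between 12.7 and 85.8 CPM. The cartilage and notochord list had 1 of 13 markers, *ucmab*, at between 0 and 11.4 CPM. In a pool of tissue, fewer cells of a type and less RNA per cell cannot be told apart.

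The matrix and adhesion genes were sparse in these livers apart from *fn1b*. In WT livers *fn1b* alone held 87.3% to 94.8% of all counts of the 31 genes, and in cr*keap1a/b* livers 56.8% to 77.8%. Levels are CPM scaled by TMM factors, and since each transcript gives reads only near its 3′ end, they do not grow with transcript length. The median gene of the group had a mean of 7.69 CPM over the 6 libraries, against 15.1 CPM over all rows with a gene ID. The lowest mean of any such row was 0.805 CPM, so genes with few counts may be missing from the count table. Genes and markers without a row are therefore not taken as undetected. Only 4 of the 31 genes, 12.9%, were above 0 in all 6 libraries, against 29.8% of all rows. These were *fn1b*, *itgb1b.2*, *itgb1a* and *col18a1a*. At 0 counts were 21 of the 31 genes in WT replicate 3 and 19 in its cr*keap1a/b* counterpart, compared with 0 to 6 in the letter a libraries, and 14 were at 0 in both replicate 3 libraries. A count of 3, taken as the limit of detection, corresponded to 0.175 to 0.367 CPM, which covers counting error only. The lowest of these limits was that of WT replicate 3, the library with most rows at 0. Where rows were above 0, the middle row held 806 counts in that library and 670.5 in its cr*keap1a/b* counterpart. Among the letter a libraries this value lay between 145 and 228. A 0 in replicate 3 is therefore not read as a level under this limit, and high counts there call for the same caution.

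**Figure D1:**
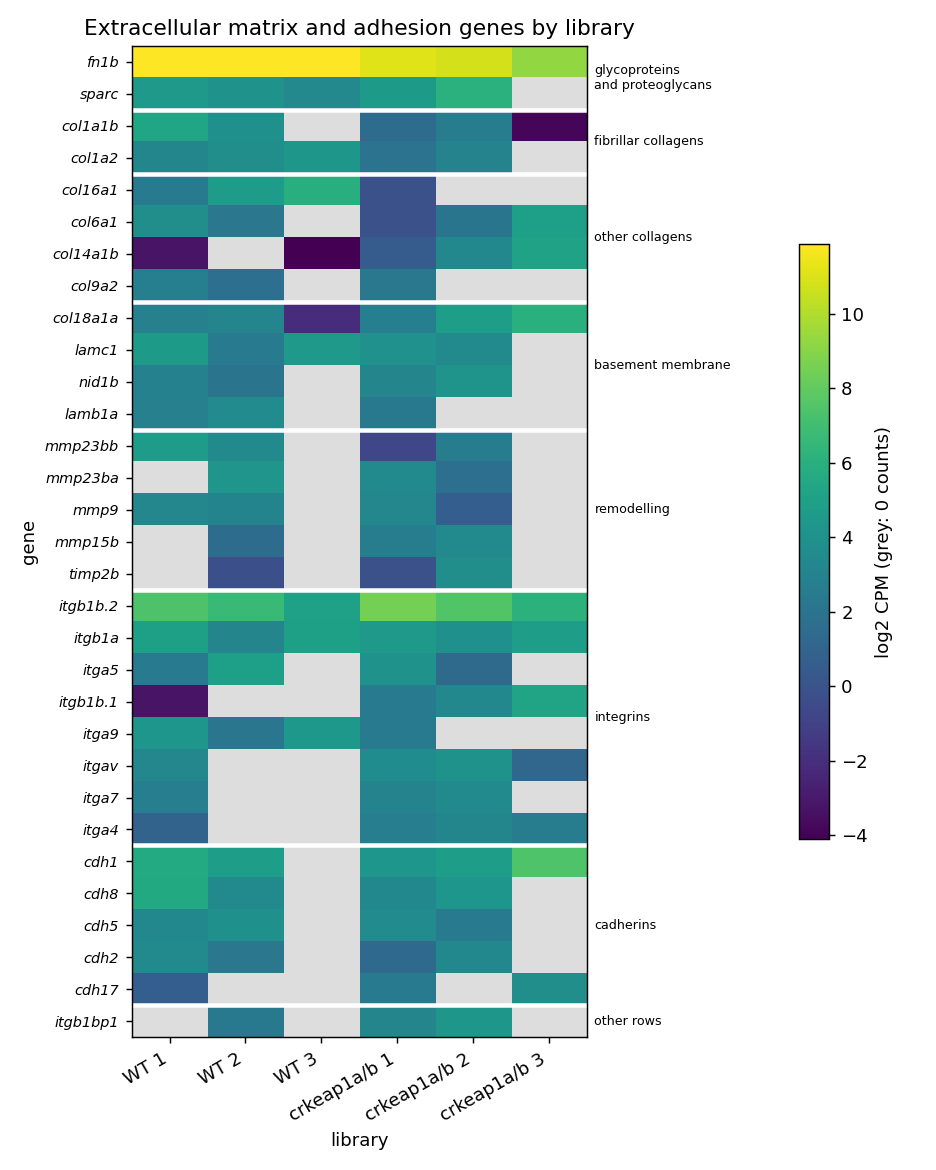
Log2 CPM of the 31 matrix and adhesion genes (rows, grouped by role) in the 3 WT and 3 crkeap1a/b libraries (columns), with grey for 0 counts. The row of *fn1b* is bright in all 6 libraries, and 21 and 19 rows are grey in WT replicate 3 and crkeap1a/b replicate 3.

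Whether the expression of these genes differs after loss of Keap1 was tested with limma-voom across 6386 genes, of which 30 belonged to the group. One gene, *fn1b*, fell in cr*keap1a/b* livers, and 0 rose. At this threshold, an adjusted p under 0.05, 0.595% of all tested genes were called lower and 0.595% higher, or 1.19% in either direction. An unadjusted p under 0.05 was reached by 5 of the 30 genes, 16.7%, against 7.61% of all tested genes. Of these, *itgb1b.1* and *col14a1b* were higher and *fn1b*, *itga9* and *col16a1* lower. *itgb1b.1* and *col14a1b* passed the filter on low counts before the test only through the cr*keap1a/b* pools. *col16a1*, at 10, 0 and 0 counts in the cr*keap1a/b* pools, passed it only through the WT pools. *itga9*, at 59, 0 and 0 counts in the cr*keap1a/b* pools, passed it mainly through the WT pools. The share of 16.7% is therefore not read as a result about these genes. Log2 fold changes were positive for 14 and negative for 16 genes. The median gene of the group was at −0.15 and the median of all tested genes at 0.36, and in the letter a libraries these were −0.22 and 0.21. edgeR's quasi-likelihood test called 0 of the 30 genes (0.345% of all genes tested), and limma with a trend called *fn1b* (0.767% of all genes tested). DESeq2 called *fn1b*, *itgb1b.1*, *col14a1b* and *col16a1* (3.27% of the 4807 genes it gave an adjusted p). Of the 30 genes, it gave none for *lamb1a*, *nid1b*, *col9a2*, *itga4*, *itga7*, *itgb1bp1*, *mmp9*, *mmp15b*, *mmp23ba*, *cdh2* and *cdh17*. Its calls are therefore not out of all 30 genes. At an unadjusted p under 0.05, edgeR had 1 of the 30 genes, against 253 of all 6386 tested. Limma with a trend had 2 of the 30, against 419 of all 6386. In the letter a libraries limma-voom called *fn1b* (4.46% of all genes tested) and edgeR 0 genes (1.86%), and among the 1935 genes above 0 in every library limma-voom called 0 genes of the group (1.96%). The interval around most estimates was wide. The 95% interval spanned a median of 14.6 on the log2 scale and was narrowest for *fn1b*, at 0.87. For most of these genes neither an unchanged level nor a large difference could thus be told from the data. The limma-voom interval draws on the variance of other genes and does not measure the spread of a gene's pools alone. That of *fn1b*, from −1.99 to −1.12, leaves out its estimate in the letter a libraries, −0.87.

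**Figure D2:**
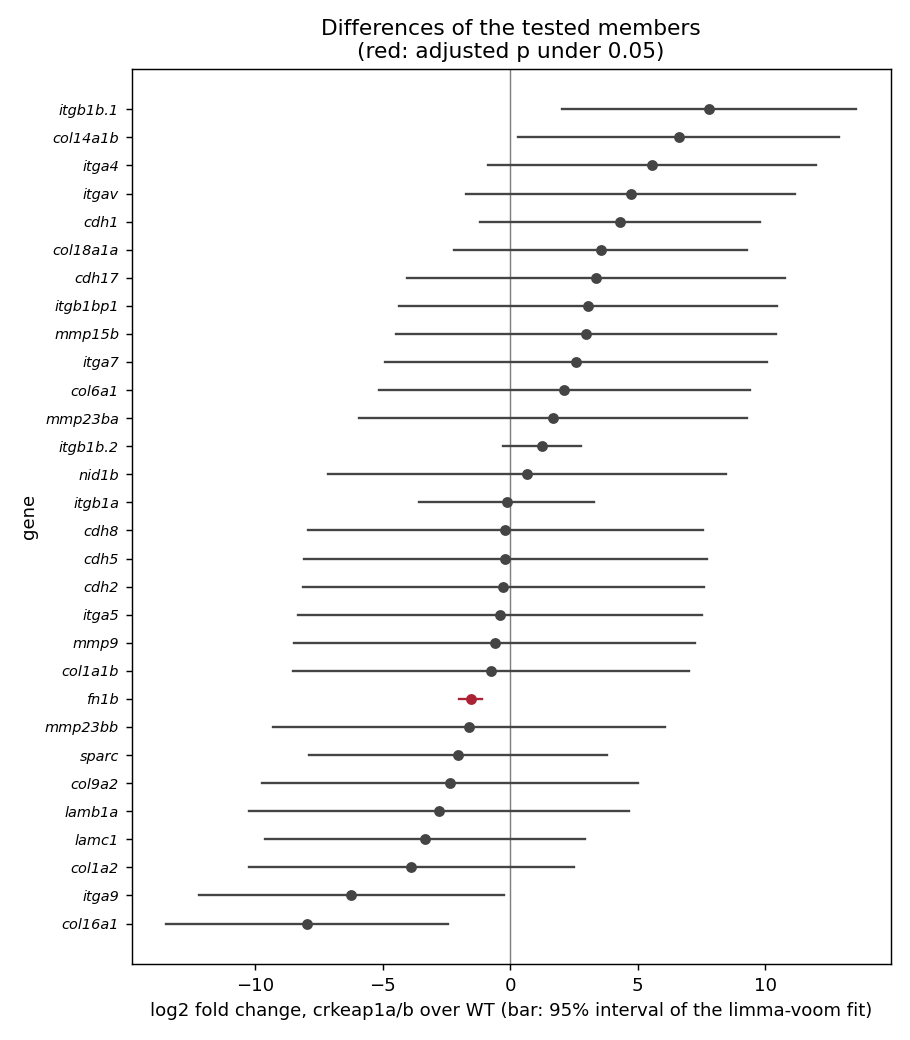
Log2 fold change (crkeap1a/b over WT, x axis) of the 30 tested genes (y axis, ordered by value) with the 95% interval of the limma-voom fit as a bar. Only *fn1b*, in red, had an adjusted p under 0.05, and its interval is the shortest.

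*fn1b* (Entrez 334613) encodes a zebrafish fibronectin, the glycoprotein that links integrins to collagen and that assembles into fibrils on the cell surface. Its level was 3737, 3590 and 3659 CPM in WT replicates 1, 2 and 3, and 2161, 1826 and 614 CPM in cr*keap1a/b* replicates 1, 2 and 3. All 3 cr*keap1a/b* pools lay below all WT pools, also as an unscaled share of counts, which was 0.302%, 0.309% and 0.418% against 0.201%, 0.183% and 0.0827%. The WT pools lay close together only in CPM scaled by TMM factors, as the unscaled share was higher in WT replicate 3, at 0.418%. That library also stood apart in its number of genes detected. cr*keap1a/b* replicate 3 was the lowest of all. The WT mean was 3662 ± 73.5 CPM and the cr*keap1a/b* mean 1534 ± 814 CPM (SD, n = 3 pools each), which is 0.419 of WT. The gene ranked 51st by mean level among 6502 rows in the WT pools and 126th in the cr*keap1a/b* pools. In log2 units the change was −1.55 ± 0.22 (SE), with a 95% interval from −1.99 to −1.12 and a limma-voom adjusted p of 4.95e-07. The SE, interval and p-value of limma-voom draw on the variance of the other genes tested, not on the *fn1b* pools alone. An exact permutation test of log2 CPM gave a two-sided p of 0.1, the smallest that 3 pools against 3 allow.

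The fall of *fn1b* was smaller in the letter a libraries, at −0.87 on the log2 scale, where limma-voom gave an adjusted p of 0.000987. There the mean of cr*keap1a/b* was 0.544 of that in WT, and in the letter b libraries the ratio was 0.168. Without cr*keap1a/b* replicate 3 the log2 fold change was −0.88, with a limma-voom adjusted p of 0.0217. The call was lost in edgeR's quasi-likelihood test, with a log2 fold change of −1.26 and an adjusted p of 0.309. It was lost as well in the limma-voom fits without WT replicate 1, WT replicate 2 or cr*keap1a/b* replicate 2, with log2 fold changes of −1.50, −1.49 and −1.74 and adjusted p-values near 1. In these fits the SE of *fn1b* rose from 0.22 to 2.32, 0.84 and 4.70. Other genes lost precision too, with the SE of *itgb1b.2* rising from 0.76 to 12.3, 3.65 and 16.5. The call was also lost among the genes above 0 in every library (adjusted p 0.0651 in limma-voom), with the description letter as a covariate (0.217 in limma-voom), with replicate blocks (0.509 and 0.517 in limma-voom) and in edgeR on letter a alone (0.127). The log2 fold change was negative in all 20 alternatives and ran from −1.80 to −0.86. Relative to the median of all tested genes it was −1.91, against −1.83 with library totals in place of TMM factors, −1.36 in DESeq2, −1.31 in edgeR and −1.08 in the letter a libraries.

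**Figure D3:**
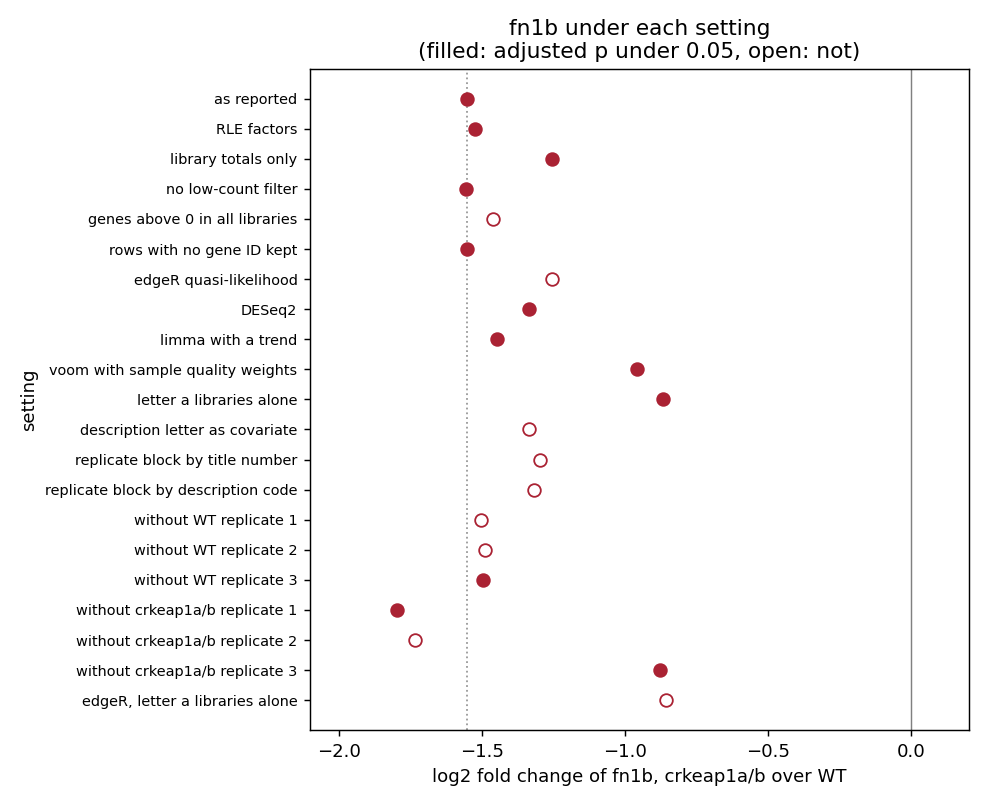
Log2 fold change of *fn1b* (x axis) as reported and under 20 alternatives (y axis), with filled points for an adjusted p under 0.05 and open points otherwise. All points lie left of 0, between −1.80 and −0.86, and 11 of the 20 alternatives are filled.

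*fn1b* was next set against the marker lists. The sum of 9 hepatocyte markers was 201906, 208953 and 144322 CPM in the WT pools and 166333, 142200 and 95707 CPM in the cr*keap1a/b* pools. These groups overlapped over all libraries but not within letter a, where the ratio was 0.751. Of the 9 markers, *apoa1b*, which made up most of the sum, and *fabp10a* were called lower, at −0.60 and −0.49 on the log2 scale where limma-voom gave adjusted p-values of 3.20e-20 and 0.000792. Per 1000 CPM of these markers, *fn1b* was at 18.5, 17.2 and 25.4 CPM in the WT pools and at 13.0, 12.8 and 6.42 CPM in the cr*keap1a/b* pools. On that scale the *fn1b* groups did not overlap, the WT mean being 20.3 ± 4.38 and the cr*keap1a/b* mean 10.8 ± 3.75 (SD, n = 3 pools each). The 15 exocrine pancreas markers in the table, of 19 listed, summed to between 24059 and 38808 CPM in the WT pools and between 7659 and 11437 CPM in the cr*keap1a/b* pools, and 7 of them were called lower. At 0 counts were 1 of the 15 in WT replicate 3, 1 in cr*keap1a/b* replicate 1 and 3 in cr*keap1a/b* replicate 3. Their part in the fall of *fn1b* was not tested.

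**Figure D4:**
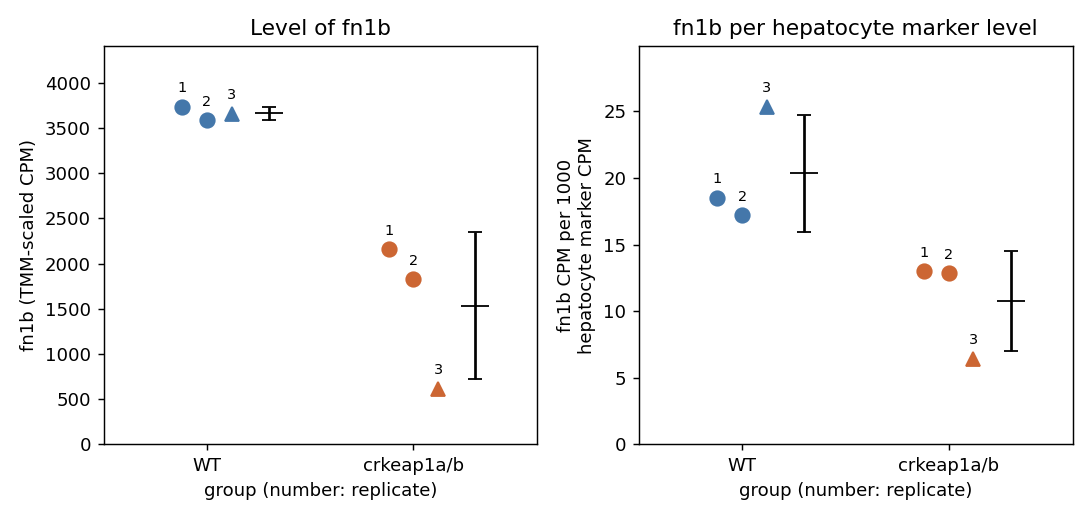
Level of *fn1b* in TMM-scaled CPM (left) and per 1000 CPM of summed hepatocyte markers (right) in each WT and crkeap1a/b library, with circles for letter a, triangles for letter b, and the mean ± SD beside them. In both panels every crkeap1a/b library lies below every WT library.

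The second glycoprotein, *sparc*, encodes a collagen-binding protein secreted by many mesenchymal cells. It was at 22.8, 16.4 and 10.5 CPM in the WT pools and at 24.8, 67.8 and 0 CPM in the cr*keap1a/b* pools. Its groups overlapped, and its direction depended on the libraries, with a log2 fold change of −2.05 ± 2.93 (SE) over all of them and 1.11 in those of letter a. The limma-voom adjusted p was 0.980 and 0.558.

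Fibrillar collagen was represented by *col1a1b* and *col1a2*, chains of type I collagen, the main tensile fibre of connective tissue. *col1a2* (Entrez 336471) was at 9.32, 14.1 and 20.1 CPM in the WT pools and at 3.95, 8.19 and 0 CPM in the cr*keap1a/b* pools. The groups did not overlap. Its log2 fold change was −3.87 ± 3.20 (SE), and the adjusted p of limma-voom was 0.833. It was at −1.40 without cr*keap1a/b* replicate 3 and at −0.89 in the letter a libraries. *col1a1b* was at 39.7, 15.3 and 0 CPM in the WT pools and at 2.96, 5.97 and 0.0666 CPM in the cr*keap1a/b* pools. Its letter a groups did not overlap either, and its log2 fold change there was −2.53, with a limma-voom adjusted p of 0.573. Both chains were thus lower in the letter a cr*keap1a/b* pools, by amounts that did not pass the test, and between groups of 2 such a separation was found for 43.2% of all tested genes. Skin and periderm markers, 8 of 13 listed, summed to between 925 and 2299 CPM in the WT pools and between 598 and 735 CPM in the cr*keap1a/b* pools, with 1 of them called lower and 4 at 0 in cr*keap1a/b* replicate 3. Skeletal muscle markers, 11 of 16 listed, summed to between 435 and 2018 CPM in the WT pools and between 235 and 397 CPM in the cr*keap1a/b* pools, and up to 5 of them were at 0 in a library. Their part in the collagen values was not tested. Not every marker list was lower in the cr*keap1a/b* pools. Lens and retina markers, 4 of 9 listed, summed to between 0 and 40.7 CPM in WT and between 0 and 232 CPM in cr*keap1a/b*. Erythrocyte markers, 7 of 11 listed, summed to between 521 and 666 CPM in WT and between 620 and 2279 CPM in cr*keap1a/b*.

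The other collagens held wide contrasts between pools. *col16a1* (Entrez 100535782), a collagen that in mammals sits along fibrils rather than forming them, had 52, 204 and 1065 counts in the WT pools and 10, 0 and 0 counts in the cr*keap1a/b* pools. Every WT pool was higher than every cr*keap1a/b* pool, and the WT counts themselves spread widely. Its log2 fold change was −7.95 ± 2.77 (SE), and the adjusted p was 0.205 in limma-voom, near 1 in edgeR and 0.0449 in DESeq2. *col14a1b* (Entrez 100331704), of the same fibril-associated class, showed the opposite order, with 1, 0 and 1 counts in the WT pools and 16, 130 and 514 counts in the cr*keap1a/b* pools. A floor of 3 counts was highest in WT replicate 2, at 0.367 CPM. The mean *col14a1b* level in the cr*keap1a/b* pools was 41.7-fold this floor, and 16.0-fold without replicate 3. These ratios of means do not cover the spread between pools, and cr*keap1a/b* replicate 1 was at 1.44 CPM. The floor covers counting error only, and so not the many rows at 0 in WT replicate 3. *col14a1b* passed the filter on low counts only through the cr*keap1a/b* pools, and *col16a1* only through the WT pools. This limits how their order, these ratios and the limma-voom estimates can be read. In limma-voom the log2 fold change of *col14a1b* was 6.61 ± 3.16 (SE), with a 95% interval from 0.31 to 12.9. The adjusted p of *col14a1b* was 0.594 in limma-voom and 0.0494 in DESeq2. In both genes the highest library was replicate 3 of the group with the higher counts. In the letter a libraries the limma-voom adjusted p was 0.539 for *col16a1* and 0.582 for *col14a1b*. *col6a1*, a chain of the beaded microfibrils of collagen VI, had 133, 39 and 0 counts in the WT pools and 10, 54 and 458 in the cr*keap1a/b* pools, with overlapping groups and a log2 fold change of 2.13 over all libraries and −2.07 in letter a. *col9a2*, a collagen of cartilage, ranged from 0 to 7.02 CPM and was at 0 in 3 libraries.

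Basement membranes are sheets of laminin and collagen IV tied together by nidogen, and 4 genes of this class were found. *col18a1a*, whose mammalian ortholog releases the fragment endostatin, was at 7.33, 8.94 and 0.233 CPM in the WT pools and at 6.82, 28.1 and 66.8 CPM in the cr*keap1a/b* pools. The groups overlapped, the log2 fold change was 3.55 ± 2.88 (SE) and the limma-voom adjusted p 0.824, and in the letter a libraries the log2 fold change was 0.88. The laminin gamma chain gene *lamc1* had 231, 46 and 380 counts in the WT pools and 176, 138 and 0 in the cr*keap1a/b* pools, and its direction turned in the letter a libraries, from −3.33 to 0.030 on the log2 scale. *lamb1a*, a laminin beta chain gene, and *nid1b*, a nidogen gene, ranged from 0 to 12.4 CPM and from 0 to 18.1 CPM. Of the class, 2 log2 fold changes were positive and 2 negative. None was called by edgeR, either form of limma or DESeq2, which gave no adjusted p for *lamb1a* and *nid1b*, and 0 reached an unadjusted limma-voom p under 0.05.

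All 5 genes of matrix remodelling were at 0 counts in both replicate 3 libraries. In the letter a libraries *mmp9*, a gelatinase that neutrophils and macrophages release, was at 9.95 and 8.57 CPM in the WT pools and at 9.97 and 1.59 CPM in the cr*keap1a/b* pools. The paralogs *mmp23ba* and *mmp23bb* lay between 0 and 25.3 CPM, and *mmp15b*, a membrane-bound protease gene, between 0 and 11.4 CPM. *timp2b*, an inhibitor gene, had 0 and 7 counts in the letter a WT pools and 10 and 174 in the cr*keap1a/b* pools, and was the member that did not pass the filter on low counts. Limma-voom adjusted p-values of the 4 tested genes were 0.979 or higher.

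Integrins are pairs of an alpha and a beta chain, and beta 1 is the partner of most alpha chains that bind fibronectin, laminin or collagen. The beta 1 gene *itgb1b.2* (Entrez 405864) was the most abundant member after *fn1b*, at 167, 100.4 and 33.4 CPM in the WT pools and 375, 182 and 72.1 CPM in the cr*keap1a/b* pools. The groups overlapped over all libraries, with replicate 3 lowest in each, and did not overlap within letter a. The ratio of cr*keap1a/b* to WT was 2.08 in letter a and 2.16 in letter b. In log2 units the difference was 1.26 ± 0.76 (SE), with a 95% interval from −0.27 to 2.78 and a limma-voom adjusted p of 0.741, and in the letter a libraries 1.001 with a limma-voom adjusted p of 0.0862. The gene was called only without cr*keap1a/b* replicate 3, at 1.89 with a limma-voom adjusted p of 0.0344, and without WT replicate 3 it was at 0.32.

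*itgb1b.1* (Entrez 566771), which was singled out after its values were seen, had 1, 0 and 0 counts in the WT pools and 63, 129 and 574 counts in the cr*keap1a/b* pools. It was detected in all cr*keap1a/b* libraries and at or under 1 count in all WT libraries. Its mean level in the cr*keap1a/b* pools was 49.1-fold the same floor of 0.367 CPM, and 21.7-fold without replicate 3. These ratios of means do not cover the spread between pools, and cr*keap1a/b* replicate 1 was at 5.66 CPM. Here too the floor leaves out the many rows at 0 in WT replicate 3. *itgb1b.1* passed the filter on low counts only through the cr*keap1a/b* pools. This limits how these ratios and the limma-voom estimate can be read. In limma-voom the log2 fold change of *itgb1b.1* was 7.81 ± 2.88 (SE), with a 95% interval from 2.05 to 13.6. The adjusted p of *itgb1b.1* was 0.269 in limma-voom, near 1 in edgeR and 0.0184 in DESeq2. In the letter a libraries limma-voom gave an adjusted p of 0.495. Of the beta 1 counts, *itgb1b.1* made up at most 0.0526% in the WT pools and 1.40%, 4.95% and 27.6% in the cr*keap1a/b* pools. *itgb1b.1* and *itgb1b.2* are neighbours in the RefSeq table. Their sequences were not compared, and near-identical copies could share reads, so the division of counts between them is uncertain. The third gene, *itgb1a*, was at 31.5, 8.94 and 31.8 CPM in the WT pools and at 23.7, 15.3 and 27.9 CPM in the cr*keap1a/b* pools, with a log2 fold change of −0.13 ± 1.72 (SE). Summed over the 3 genes, beta 1 integrin was at 199, 109 and 65.2 CPM in the WT pools and at 404, 207 and 138 CPM in the cr*keap1a/b* pools, and the groups overlapped.

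**Figure D5:**
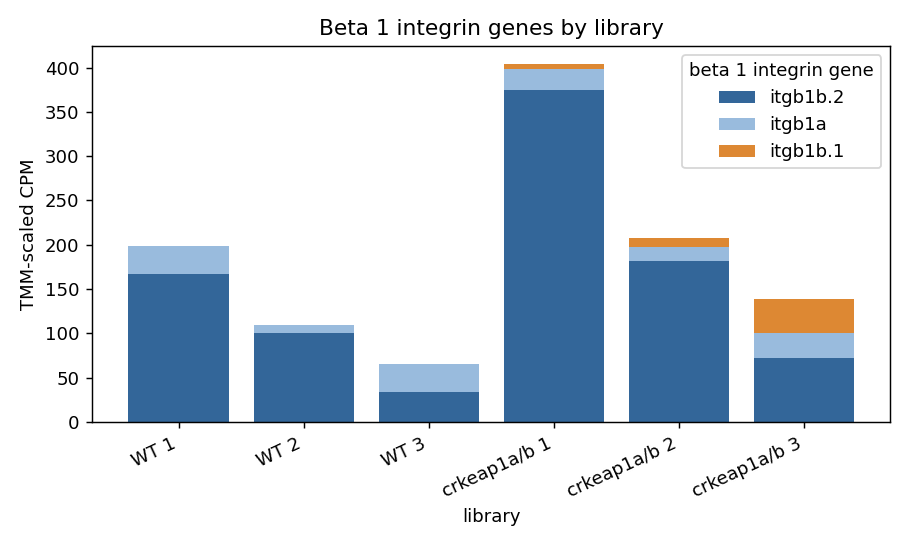
TMM-scaled CPM (y axis) of the 3 beta 1 integrin genes, stacked, in each library. The orange segment of *itgb1b.1* is seen in the 3 crkeap1a/b libraries, up to 38.2 CPM, and not in WT, where it was at most 0.105 CPM.

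The 5 alpha chains lay at or below 30.7 CPM. *itga5*, whose product pairs with beta 1 as a fibronectin receptor, was at 5.86, 30.7 and 0 CPM in the WT pools and at 16.5, 2.62 and 0 CPM in the cr*keap1a/b* pools. *itga4*, also a fibronectin receptor chain and known from leukocytes, had 19, 0 and 0 counts in the WT pools. In the cr*keap1a/b* pools it had 73, 118 and 93, without overlap, and its limma-voom adjusted p was 0.741. It passed the filter on low counts mainly through the cr*keap1a/b* pools, so this lack of overlap is not read as a result. *itga9*, a receptor chain for tenascin in mammals, had 188, 36 and 358 counts in the WT pools and 59, 0 and 0 in the cr*keap1a/b* pools, with overlap and a limma-voom adjusted p of 0.597. *itga4* and *itga9* were likewise chosen after their values were seen. Of the 2 leukocyte markers in the table, of 11 listed, *marco* and *spi1b*, the sum lay between 0 and 42.0 CPM in the WT pools and between 8.98 and 29.0 CPM in the cr*keap1a/b* pools, and their part in the values of *itga4* was not tested. *itgav*, a vitronectin receptor chain, and *itga7*, a laminin receptor chain of muscle, were at 0 in WT replicates 2 and 3 and lay between 0 and 17.4 CPM and between 0 and 11.9 CPM over all libraries. *itgb1bp1*, which the prefix also takes, encodes a protein that in mammals binds the inner tail of beta 1 integrin. It was at 0, 5.14 and 0 CPM in the WT pools and at 8.89, 20.3 and 0 CPM in the cr*keap1a/b* pools, with a limma-voom adjusted p of 0.979.

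Cadherins join neighbouring cells, and all 5 cadherin genes were at 0 counts in WT replicate 3. *cdh1*, the E-cadherin of epithelia, was at 50.9, 28.4 and 0 CPM in the WT pools and at 19.3, 27.1 and 176 CPM in the cr*keap1a/b* pools. Both extremes were replicate 3 libraries. Over all libraries its log2 fold change was 4.31 ± 2.76 (SE), at an adjusted p of 0.741 in limma-voom, and it turned to −0.73 in the letter a libraries, where both cr*keap1a/b* pools lay below both WT pools. The 3 biliary markers in the table, of 7 listed, also an epithelium, summed to between 1134 and 1572 CPM in the WT pools and between 692 and 1019 CPM in the cr*keap1a/b* pools, 1 of them being at 0 in WT replicate 3 and 2 being at 0 in that of cr*keap1a/b*. Their part in the values of *cdh1* was not tested. *cdh5*, the VE-cadherin of endothelium, was at 10.4, 15.1 and 0 CPM in the WT pools and at 12.2, 5.25 and 0 CPM in the cr*keap1a/b* pools. *cdh8*, known from neurons, had 469, 90 and 0 counts in the WT pools and 113, 242 and 0 in the cr*keap1a/b* pools. *cdh2*, the N-cadherin gene, was at 0 in both replicate 3 libraries and otherwise between 2.60 and 11.3 CPM. *cdh17*, a cadherin of intestinal epithelium, had 15, 0 and 0 counts in the WT pools and 62, 0 and 210 in the cr*keap1a/b* pools. The groups of *cdh5*, *cdh8*, *cdh2* and *cdh17* overlapped also within letter a. The 7 intestinal markers in the table, of 14 listed, summed to between 856 and 1938 CPM in the WT pools and between 714 and 923 CPM in the cr*keap1a/b* pools, and the part of intestine in the values of *cdh17* was not tested.

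Groups did not overlap for 6 of the 30 tested genes, against 13.4% of all tested genes. Of these, *itgb1b.1*, *itga4* and *col14a1b* were higher and *fn1b*, *col1a2* and *col16a1* lower in the cr*keap1a/b* pools. *itgb1b.1* and *col14a1b*, at no more than 1 count in each WT pool, passed the filter on low counts only through the cr*keap1a/b* pools. *itga4*, with 19, 0 and 0 counts in the WT pools, passed it mainly through the cr*keap1a/b* pools. *col16a1*, with 10, 0 and 0 counts in the cr*keap1a/b* pools, passed it only through the WT pools. The lack of overlap of these genes largely follows from the filter and is not read as a result. To set the group difference against the spread between pools without the zeros, the 17 genes above 0 in all letter a libraries were compared there. Between the WT pools they differed by a median of 0.92 on the log2 scale and between the cr*keap1a/b* pools by 1.05, whereas the groups differed by 1.01. The difference between groups was larger than both differences between pools in 3 of the 17 genes, 17.6%, against 30.9% of 4670 rows overall. These were *fn1b*, *nid1b* and *col1a1b*. *fn1b* differed by 0.058 between the WT pools and by 0.24 between the cr*keap1a/b* pools, against −0.88 between groups.

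Genes that make, fold, cut or anchor matrix were examined beside the group. Of 113 genes listed, 38 were in the table and 37 were tested. limma-voom, edgeR and limma with a trend called 0 of them, and DESeq2 called 1, against 3.27% of the genes it gave an adjusted p. An unadjusted p under 0.05 was reached by 2 of them in each of limma-voom, edgeR and limma with a trend. In limma-voom this was 5.41%, against 7.61% of all tested genes. Of all 6386 genes tested, edgeR had 253 and limma with a trend 419 at that threshold. Of the log2 fold changes 18 were positive and 19 negative, and their median was −0.048. The 2 with the smallest p-values were *tjp2a* and *ppib*, and both are named after their values were seen. *ppib* encodes cyclophilin B, a prolyl isomerase of the endoplasmic reticulum that helps to fold collagen and other secreted proteins. It was at 164, 120 and 146 CPM in the WT pools and at 404, 547 and 182 CPM in the cr*keap1a/b* pools, without overlap, with a limma-voom adjusted p of 0.594 over all libraries and 1.51e-05 in those of letter a, with 4.46% of all genes called. *tjp2a*, a tight junction scaffold gene, had 0 counts in the 3 WT libraries and 212, 301 and 598 in the cr*keap1a/b* pools, with a limma-voom adjusted p of 0.0584 and a DESeq2 adjusted p of 0.000625. *tjp2a* passed the filter on low counts only through the cr*keap1a/b* pools. The vitronectin gene *vtna*, a plasma protein that like fibronectin binds integrins, was at 507, 612 and 244 CPM in the WT pools and at 291, 283 and 356 CPM in the cr*keap1a/b* pools, with overlap. Its log2 fold change was −0.28 over all libraries, with an adjusted p of 0.980 in limma-voom, and it was called lower in the letter a libraries, at −0.93 with an adjusted p of 0.0349 in limma-voom. Its paralog *vtnb* was at 0.22 over all libraries and at −0.73 in letter a, with adjusted p-values of 0.992 and 0.157 in limma-voom.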

How the data were processed

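Pools of dissected livers were sequenced from QuantSeq 3′ libraries (3 WT, 3 cr*keap1a/b*). Per the submitters' notes and the study's methods, the tools were cutadapt 1.16 for trimming, STAR 2.7.5b for alignment to GRCz11 (danRer11) and featureCounts 1.6.3, and the authors deposited raw counts per gene with Entrez IDs. Use of strand in counting is not given in the sources used here. Symbols came from a RefSeq table of GRCz12tu (6426 of 6502 IDs), for names only, so no coordinates are printed. The 135 rows without an ID, 9.82% to 13.6% of counts, were left out of totals and tests, and 1 ID occurred on 2 rows, kept apart.

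limma-voom (limma 3.58.1, edgeR 4.0.16, R 4.3.3), the method the study names, was fitted with filterByExpr, TMM factors and the group as the only term, with Benjamini-Hochberg adjustment over all genes tested. DESeq2 1.42.0 was an alternative. Other normalizations, filters, tools, blocks and left-out pools were tried, 20 in all, and edgeR on letter a alone was added after seeing the data.

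Members and lists were chosen with earlier results of these data known. Named were *fn1b*, members called by limma-voom, edgeR or limma with a trend, the 3 most abundant of each role, and members without overlap detected in 5 or more libraries, 20 genes in all. The remaining members were named after their values were seen, so that all 31 are accounted for. Controls were clutch siblings per the study's methods, but which pools shared a clutch is not given in the sources used here. The p-values therefore refer to these pools and not to clutches. In limma-voom the variance of each gene is drawn toward that of the other genes tested. Its SE and p-value thus do not measure the spread of that gene's pools alone.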

Additional observations from a re-analysis of the deposited data

How the results depend on the processing

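The count of genes of the group called lower, 1 by limma-voom, was 2 in DESeq2, and 0 in edgeR, in edgeR on the letter a libraries, with the description letter as a covariate, among the 1935 genes above 0 in all libraries, and with either replicate block. The count called higher, 0, was 2 in DESeq2. Over all genes tested, in either direction, limma-voom called 1.19%, edgeR 0.345% and edgeR on the letter a libraries 1.86%. Limma-voom called 1.96% of the genes above 0 in all libraries, and DESeq2 3.27% of those it gave an adjusted p. Shares by direction were not computed for DESeq2, so its counts are not read as a result about these genes. When 1 pool was left out, 0 to 1 were called higher and 0 to 1 lower. Of the matrix-related genes outside the group, limma-voom called 0 (1.19% of all genes tested) and DESeq2 1 (3.27% of the genes it gave an adjusted p). On letter a alone, edgeR called 1 (1.86%) and limma-voom 2 (4.46%). At an adjusted p under 0.1 limma-voom called 1, and 0 to 2 when 1 pool was left out. The share of all genes called was not computed for the left-out pools, the letter covariate, the replicate blocks and the threshold of 0.1. Those counts are therefore not read as a result about these genes. With a replicate block by title number *fn1b* was at −1.30 with a limma-voom adjusted p of 0.509, and by description code at −1.32 with 0.517. Deviations of same-numbered pools correlated between 0.0099 and 0.074 by title and between 0.045 and 0.074 by code, and every pool correlated best with its partner by description code. These values are low and cannot show whether the numbers mark pairs. The letter b pools also share their many genes at 0, and which pools shared a clutch is not given in the sources used here. Direction turned for *itgb1a* with library totals (0.071), limma with a trend (0.055), sample quality weights (0.13) and letter a (0.091), and for *sparc* in edgeR (0.90), DESeq2 (0.81), with quality weights (0.95), in letter a (1.11) and in edgeR on letter a (1.26). It also turned for *mmp23ba* in edgeR (−0.40), DESeq2 (−0.51) and edgeR on letter a (−0.38), for *col6a1* with quality weights (−1.27), in letter a (−2.07) and in edgeR on letter a (−1.82), for *cdh1* in letter a (−0.73) and in edgeR on letter a (−0.75), and for *lamc1* in letter a (0.030). When 1 pool was left out, the log2 fold change ran from −3.83 to 2.51 for *cdh8*, from −3.27 to 2.19 for *cdh5*, from −4.44 to 0.71 for *col1a1b*, from −3.45 to 1.80 for *itga5*, from −0.48 to 0.28 for *itgb1a*, from −3.51 to 1.51 for *mmp9*, from −0.55 to 3.51 for *col6a1*, from −1.75 to 3.70 for *nid1b*, from −0.039 to 4.85 for *mmp23ba*, from −3.93 to 1.62 for *sparc* and from −5.05 to 0.012 for *mmp23bb*. Leaving out replicate 3 of WT put the median of the tested genes of the group at −1.62 and that of all genes at −0.50, leaving out that of cr*keap1a/b* put them at 1.89 and 1.61, and leaving out WT replicate 2 at 1.20 and 0.77. *fn1b*, *col16a1*, *col14a1b*, *itgb1b.2*, *itgb1b.1*, *itga4*, *itga9*, *col1a2*, *col18a1a* and *itgb1bp1* kept their direction in every alternative that gave a value. All alternatives reuse the same libraries. *itgb1b.1*, *col14a1b* and *col16a1* passed the filter on low counts only through the group with the higher counts, and *itga4* and *itga9* mainly through it. The constant direction of these genes largely follows from that and is not read as a result. Sparse counts limit all genes of the group except *fn1b* and *itgb1b.2*.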
